A study of Mus musculus with 42 samples.

Results

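The genes described here are 10 regulators of mitochondrial biogenesis, taken by symbol from a deposited expression table that lists 26653 genes in each tissue: the PGC-1 coactivators *Ppargc1a*, *Ppargc1b* and *Pprc1*, the estrogen-related receptors *Esrra* and *Esrrg*, the nuclear respiratory factors *Nrf1* and *Gabpa*, the mitochondrial transcription proteins *Tfam* and *Tfb2m*, and the mitochondrial deacetylase *Sirt3*. All 10 symbols were found once in each of 7 tissues, which gave 70 pairs of a gene and a tissue. The question was how the levels of these genes compare between wild-type and *Tug1*-/- mice, since the *Tug1* long noncoding RNA is reported to act on *Ppargc1a* in podocytes, a kidney cell type that was not sampled here.

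Sequencing covered polyadenylated RNA of 42 samples (22 wild-type, 20 *Tug1*-/-). There were 4 wild-type and 3 knockout testes, 3 and 2 prostates, and 3 samples of each genotype for liver, heart, spleen, eyes and cultured fibroblasts from mouse embryos (MEFs). All donors were male mice of the strain Tug1_tm1.1Vlcg on a background labelled C57BL/6J (N3-C57BL/6J, no Neo). Wild-type (WT) mice carried both normal *Tug1* alleles, and in the homozygous knockout (*Tug1*-/-, KO) a *lacZ* reporter stood in the place of *Tug1* on both chromosomes, in every cell, from the germline on, with the *Tug1* promoter and first exon left in place. The MEFs were primary cultures at passage 2 from embryos of the same litters, so they are cultured cells and not a tissue. Ages of the tissue donors are not given in the sources used here.

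Each value is FPKM (mapped fragments scaled by transcript length and by the size of the library), and the table holds 1 value per genotype and tissue, which the authors had pooled over the samples. It has no value per sample, so no standard deviation, no test and no interval could be given for any difference below, and the depth of the libraries is unknown. "Higher" and "lower" therefore compare 2 pooled values. Differences are given as log2((KO + 0.1)/(WT + 0.1)), called the log2 difference, which understates the difference of genes with low values. A pair was counted only where the mean of both genotypes reached 1 FPKM. In bulk tissue, fewer cells of a type and less RNA per cell cannot be told apart.

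*Tug1* itself had 11.2 to 27.7 FPKM in the WT tissues and at most 0.402 FPKM in the KO, with log2 differences between -7.60 in spleen and -5.66 in heart, as the labels say. The marker genes of each labelled tissue had high sums in that tissue, with summed WT levels of 30990 FPKM for the testis markers in testes, 25518 for prostate, 865 for spleen, 15222 for heart, 28565 for liver and 4819 for the fibroblast markers in MEFs. The prostate sum was nearly all *Pbsn* (25019.5 FPKM), while *Msmb* and *Spink3* had 4.58 and 4.03 FPKM in WT prostate. *Spink3* reached 28.5 FPKM in KO spleen. In eyes the lens gene *Cryaa* had 5281 FPKM in WT. For *Alb*, a defining gene of hepatocytes, the liver values are listed at 0 and marked as short of data, so they were not used. Markers of other tissues differed between the genotypes in places. The exocrine pancreas markers summed to 2.64 FPKM in WT and 1516 in KO spleen and to at most 1.92 in the other tissues. The red blood cell markers summed to 5665 and 10978 FPKM in WT and KO spleen, 6099 and 3683 in heart, and 132 and 403 in eyes. The seminal vesicle markers summed to 8724 and 16541 FPKM in prostate, where 1 of the 4 lay beyond 1.5-fold, *Svs5* with 4182.5 and 11506.6 FPKM. *Svs2* had 4341 and 4770 FPKM there, and *Svs1* was lower in the KO (7.35 and 4.88). The adipose markers summed to 37.1 and 168 FPKM in prostate, 37.3 and 176 in eyes and 136 and 72.0 in heart, and the skeletal muscle markers to 1246 and 2294 in eyes. What part these markers have in the differences below was not tested.

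PGC-1 coactivators bind transcription factors rather than DNA and raise the transcription of genes for mitochondria, respiration and, in liver, glucose production. They work through the estrogen-related receptors, NRF1 and GABP, which bind the promoters of nuclear genes for the respiratory chain and of *Tfam* and *Tfb2m*. The TFAM and TFB2M proteins then enter the mitochondrion and start transcription of its genome. In heart, brown fat, muscle and fasted liver, PGC-1α is known as the inducible member, and its own gene is switched on through CREB, a factor that responds to cyclic AMP.

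The promoter of *Ppargc1a* is shown because *Tug1* is reported to act on this gene, with short windows of *Tfam* and *Sirt3* because they hold the letters bound by another of the 10 regulators, GABPA. Sequences are from RefSeq (GRCm38.p6), 5′ to 3′ on the gene's strand, for the 9 regulators other than *Ppargc1b*, which had 14 promoter windows of 250 bases before to 50 after a start. Capitals mark matches to CCGGAAGT (GABPA) or TGACG (the first 5 bases of the CREB motif TGACGTCA), on either strand, so CGTCA is TGACG read on the other strand. The *Ppargc1a* sequence is the 250 bases before its start, chr5:51567726-51567975, minus strand. The *Tfam* window is chr10:71238074-71238101, minus strand, with the first capital at base -47 from the start, and the *Sirt3* windows are chr7:140882378-140882405 and chr7:140882317-140882341, minus strand, with the first capital at -86 and -22.
Ppargc1a promoter: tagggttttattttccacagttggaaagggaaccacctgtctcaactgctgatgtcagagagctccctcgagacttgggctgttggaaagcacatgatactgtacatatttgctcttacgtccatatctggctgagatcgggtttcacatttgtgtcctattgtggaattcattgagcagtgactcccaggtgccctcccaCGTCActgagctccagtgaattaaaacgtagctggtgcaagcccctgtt
Tfam, GABPA letters: ctgccgcggaCCGGAAGTccgggcttcc
Sirt3, GABPA letters: gtgctcgctcACTTCCGGcaccgcgggc
Sirt3, CREB letters: gggttgcggtCGTCAaggtaaccgc

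The GABPA letters were in 2 of the 14 windows and in 3.89% of all 32851 promoters of the same length. TGACG, which every TGACGTCA also holds, was in the windows of *Ppargc1a* and *Sirt3* and in 20.8% of all promoters. The NRF1 motif (10 letters, 1 of them free), TCAAGGTCA (estrogen-related receptors) and the whole TGACGTCA were in none of the 14 windows and in 4.60%, 0.423% and 1.79% of all promoters. A match is a description of letters and not a bound site. The *Ppargc1a* promoter held 5 CpG in its 250 bases, where the median of all promoters was 6, while *Tfam* held 19, more than 80.3% of all promoters.

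Of the PGC-1 coactivators, *Ppargc1a* and *Ppargc1b* were highest in heart and *Pprc1* in MEFs. *Ppargc1a* (ENSMUSG00000029167.7; GRCm38 chromosome 5, 51454250 to 51567726, minus strand) encodes PGC-1α. Its WT and KO levels were 23.3 and 29.4 FPKM in heart, 9.31 and 9.24 in eyes, 4.56 and 6.15 in liver, 0.872 and 0.639 in prostate, 0.643 and 0.614 in testes, 0.612 and 0.323 in spleen, and 0.0164 and 0.0182 in MEFs. It was thus highest in heart in both genotypes, 2.50-fold above eyes in WT, and over 1 FPKM only in heart, eyes and liver. The order of the 7 tissues was the same in WT and KO.

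Among the tissues where *Ppargc1a* reached 1 FPKM, the KO value was higher in heart (log2 difference 0.34, KO over WT 1.26) and liver (0.42, 1.35), and the values were nearly equal in eyes (-0.01). To place such differences, each was set among the genes of the same tissue and level class (classes with edges at 1, 3, 10, 30 and 100 FPKM). The *Ppargc1a* difference lay above that of 97.6% of its class in heart and 95.3% in liver, and no replicate value shows whether either is larger than the spread between mice. The lowest log2 difference of *Ppargc1a*, -0.75 in spleen, compared values under 1 FPKM. The KO spleen is the group with the high pancreas and red blood cell markers.

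*Ppargc1b* (ENSMUSG00000033871.8), which encodes PGC-1β, a relative of PGC-1α that shares many of its partners, had WT and KO levels of 6.70 and 7.36 FPKM in heart, 6.55 and 5.84 in eyes, 4.85 and 4.13 in liver, 1.42 and 1.70 in spleen, 0.909 and 0.650 in testes, 0.443 and 0.683 in MEFs, and 0.361 and 0.396 in prostate. Heart and eyes were 1.02-fold apart in WT, a gap smaller than the difference between the genotypes in either. In the 4 tissues over 1 FPKM its log2 difference ran from -0.23 in liver to 0.24 in spleen. In liver, *Ppargc1a* was higher and *Ppargc1b* lower in the KO.

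*Pprc1* (ENSMUSG00000055491.7; chromosome 19, 46044886 to 46072915, plus strand) encodes PRC, the member of the family tied to cell growth. Its WT and KO levels were 18.2 and 23.6 FPKM in MEFs, 12.4 and 12.3 in spleen, 7.70 and 7.01 in prostate, 6.09 and 5.95 in testes, 4.96 and 6.12 in heart, 4.68 and 4.66 in eyes, and 3.62 and 5.24 in liver. Its tissue order ran against that of *Ppargc1a*, with Pearson's r of -0.84 between their WT values over the 7 tissues on the log2(FPKM + 0.1) scale, where the points share the normalization of each tissue. In contrast, *Ppargc1a* and *Ppargc1b* had r = 0.89. Values of *Ppargc1a* under 1 FPKM entered both r.

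*Pprc1* was higher in the KO in liver (log2 difference 0.52, above 97.1% of its class), MEFs (0.37, above 97.9%) and heart (0.30, above 95.9%), and its difference in the other 4 tissues lay between -0.13 and -0.01. The values for liver and heart compare with those of *Ppargc1a* in the same tissues. Exons of *Pprc1* share 177 bp with exons of *Ldb1* on the other strand, and the library kit does not keep the strand, so reads there cannot be told apart.

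**Figure D1:**
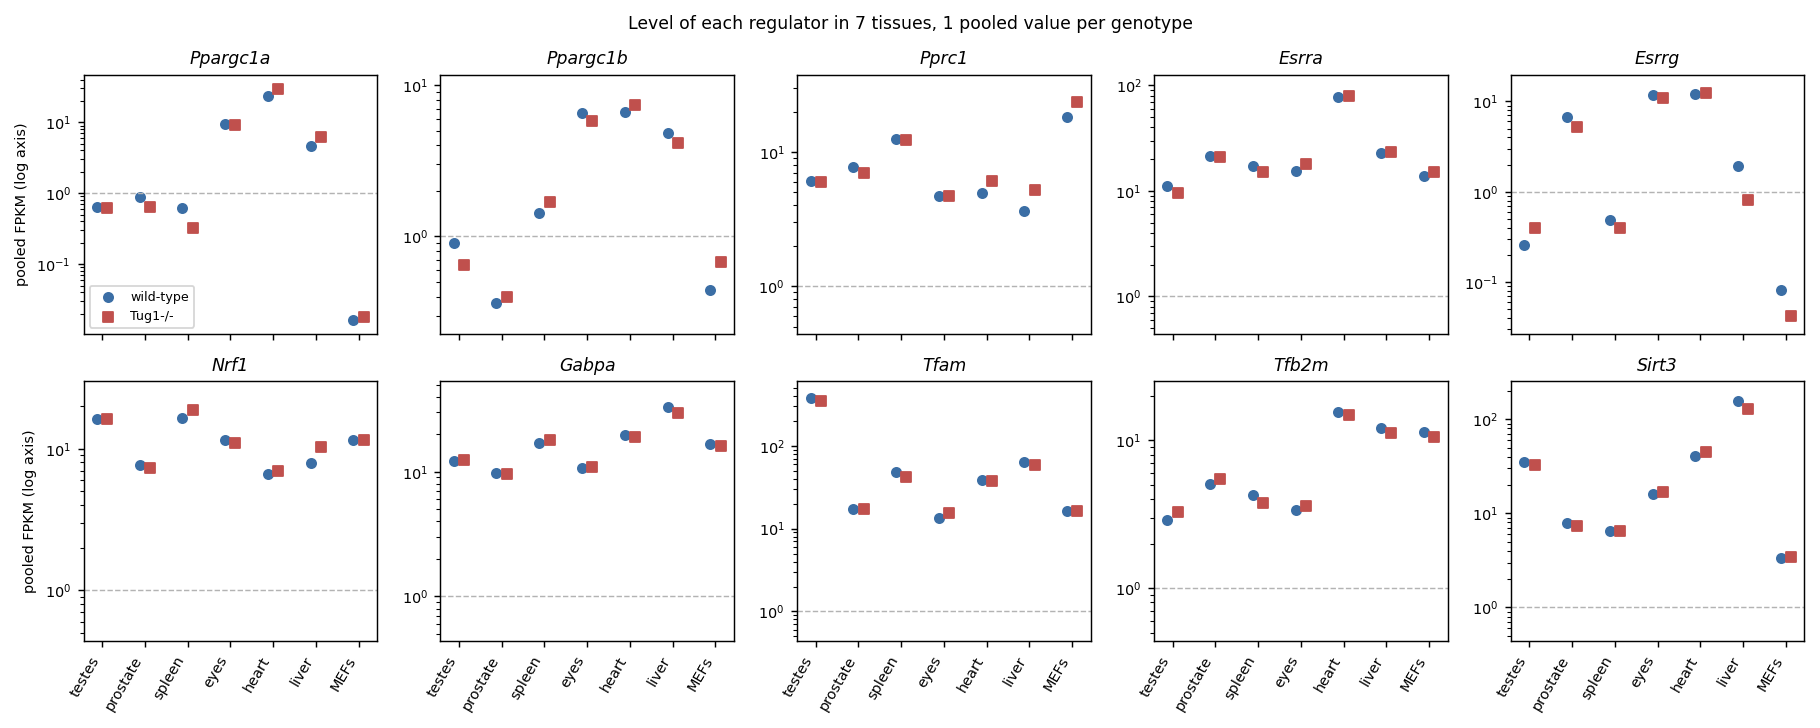
Pooled FPKM (log axis) of each of the 10 regulators in 7 tissues, with circles for wild-type and squares for *Tug1*-/-; the dashed line is 1 FPKM. Each gene keeps its highest tissue between the genotypes, and *Ppargc1a* spans from 0.0164 FPKM in MEFs to 23.3 FPKM in heart in WT.

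The estrogen-related receptors are nuclear receptors without a known natural hormone, whose activity depends on PGC-1 coactivators. *Esrra* (ENSMUSG00000024955.7; chromosome 19, 6910977 to 6921813, minus strand), the gene for ERRα, had WT and KO levels of 77.4 and 79.3 FPKM in heart, 23.1 and 23.7 in liver, 21.6 and 20.9 in prostate, 17.3 and 15.1 in spleen, then 15.4 and 18.1 in eyes, 13.8 and 15.2 in MEFs, and 11.1 and 9.55 in testes. Heart stood 3.35-fold above liver in WT, and the other 6 tissues lay between 11.1 and 23.1 FPKM. The log2 differences of *Esrra* were between -0.22 in testes and 0.24 in eyes, and in heart and liver, where *Ppargc1a* was higher in the KO, they were 0.04 and 0.03. Exons of *Esrra* share 73 bp with *Trmt112*, which leaves a small part of its level uncertain.

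*Esrrg* (ENSMUSG00000026610.7; chromosome 1, 187608791 to 188214885, plus strand), the gene for ERRγ, a receptor of tissues with high energy use, had WT and KO levels of 11.9 and 12.4 FPKM in heart, 11.8 and 10.9 in eyes, 6.68 and 5.20 in prostate, 1.91 and 0.808 in liver, 0.486 and 0.395 in spleen, 0.258 and 0.396 in testes, and 0.0828 and 0.0423 in MEFs. The heart and eye levels were 1.01-fold apart in WT. *Esrrg* in liver was the only pair of the 60 with a mean of at least 1 FPKM that lay beyond 1.5-fold, with a log2 difference of -1.15 (KO over WT 0.423), and 0.720% of the genes of its class had a lower one. The KO value there was itself under 1 FPKM, and with a pseudocount of 1 in place of 0.1 the log2 difference was -0.69. In prostate *Esrrg* had a log2 difference of -0.36, with 3.38% of its class lower. In these samples the adipose markers and the seminal vesicle gene *Svs5* were higher in the KO.

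**Figure D2:**
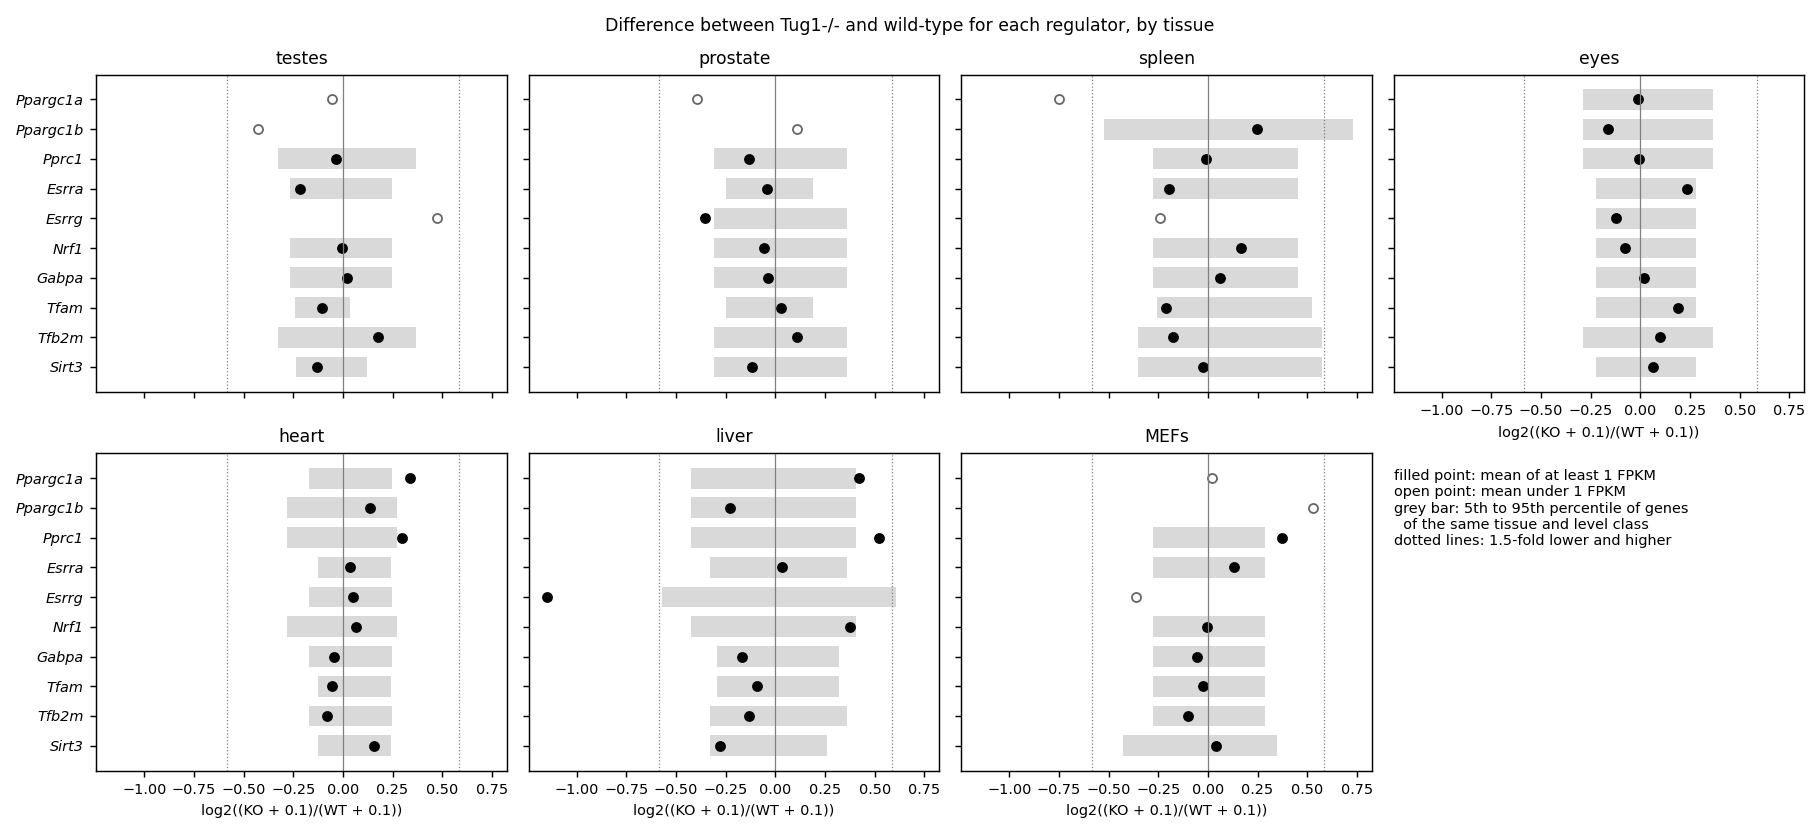
Log2 difference between *Tug1*-/- and wild-type for each regulator in each tissue (points; open where the mean is under 1 FPKM), over grey bars for the 5th to 95th percentile of genes of the same tissue and level class. Of the 60 filled points, 7 lie outside their bar, and *Esrrg* in liver at -1.15 is the only one past the dotted 1.5-fold lines.

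The nuclear respiratory factors bind the promoters of nuclear genes for the respiratory chain. *Nrf1* (ENSMUSG00000058440.8; chromosome 6, 30047988 to 30153458, plus strand) had WT and KO levels of 16.6 and 18.7 FPKM in spleen, 16.2 and 16.1 in testes, 11.6 and 11.5 in MEFs, 11.5 and 10.9 in eyes, 7.92 and 10.3 in liver, 7.65 and 7.36 in prostate, and 6.61 and 6.93 in heart. It had the narrowest range of the 10 genes, 2.51-fold between its highest and lowest WT tissue, and heart, the highest tissue of *Ppargc1a*, was its lowest. Its largest log2 difference was 0.38 in liver, above 94.0% of its class, and the other 6 lay between -0.08 and 0.17.

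*Gabpa* (ENSMUSG00000008976.10; chromosome 16, 84834925 to 84863779, plus strand), which encodes the DNA-binding subunit of GABP, had WT and KO levels of 33.1 and 29.4 FPKM in liver, 19.6 and 19.02 in heart, 17.1 and 17.9 in spleen, 16.6 and 16.0 in MEFs, 12.2 and 12.3 in testes, 10.8 and 10.9 in eyes, and 9.83 and 9.57 in prostate. Its log2 differences ran from -0.17 in liver to 0.06 in spleen, and no other of the 10 genes had a largest difference as small. Exons of *Gabpa* share 397 bp, 6.98% of their length, with exons on the other strand of *Atp5j*, a subunit of ATP synthase, so part of its level is uncertain.

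The remaining genes encode proteins that work inside the mitochondrion, and *Tfam* and *Sirt3* reached the highest levels of the 10. *Tfam* (ENSMUSG00000003923.8; chromosome 10, 71225464 to 71238280, minus strand), whose protein packs and transcribes mitochondrial DNA, had WT and KO levels of 374 and 347 FPKM in testes, 63.0 and 59.1 in liver, 48.1 and 41.5 in spleen, 38.5 and 37.1 in heart, 17.2 and 17.5 in prostate, 16.4 and 16.1 in MEFs, and 13.5 and 15.4 in eyes. The testis level was 5.93-fold above that of liver, the next tissue, in WT. *Tfam* has 5 annotated transcripts, and a value per gene does not show which of them, or which form of the protein, the testis level stands for. The log2 differences of *Tfam* lay between -0.21 in spleen and 0.19 in eyes, and the -0.11 in testes became -0.01 when the values of each group were scaled to the same total.

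*Tfb2m* (ENSMUSG00000026492.5; chromosome 1, 179528055 to 179546267, minus strand), which encodes the factor that opens mitochondrial promoters, had WT and KO levels of 15.7 and 14.9 FPKM in heart, 12.2 and 11.1 in liver, 11.4 and 10.6 in MEFs, 5.06 and 5.46 in prostate, 4.29 and 3.78 in spleen, then 3.36 and 3.60 in eyes, and 2.89 and 3.28 in testes. Testes, the highest tissue of *Tfam*, was thus the lowest of *Tfb2m*, and r between their WT values was -0.25 over the 7 tissues. The log2 differences of *Tfb2m* lay between -0.18 in spleen and 0.18 in testes.

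*Sirt3* (ENSMUSG00000025486.10; chromosome 7, 140863666 to 140882309, minus strand), which removes acetyl groups from mitochondrial enzymes, had WT and KO levels of 158 and 130 FPKM in liver, 40.3 and 44.9 in heart, 35.3 and 32.3 in testes, 16.2 and 17.0 in eyes, 7.92 and 7.30 in prostate, 6.55 and 6.43 in spleen, and 3.32 and 3.42 in MEFs. Liver stood 3.92-fold above heart in WT, and was also the tissue with its largest log2 difference, -0.28. Its exons share 418 bp with *Ric8a* and 342 bp with *Psmd13* on the other strand, so its level is also uncertain in part.

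Across the 10 genes, levels differed more between tissues than between genotypes. All 10 had the same highest tissue in WT and KO, and 6 had the same order of all 7 tissues. The span between the highest and the lowest WT tissue, on the log2(FPKM + 0.1) scale, ran from 1.32 for *Nrf1* and 1.74 for *Gabpa* through 4.78 for *Tfam* and 5.53 for *Sirt3* to 6.04 for *Esrrg* and 7.65 for *Ppargc1a*. For *Esrrg* and *Ppargc1a* the lowest tissue was MEFs, at 0.0828 and 0.0164 FPKM, so the added 0.1 largely sets the low end. The floor of 1 FPKM was not applied to the spans. In 10 of 10 genes the span between tissues was larger than the largest log2 difference between the genotypes. A span joins the highest and the lowest of 7 tissues, so it tends to exceed a difference within a single tissue. The same counts over all genes were not made, so the counts here are no result about the 10 genes. When each value was taken as a share of its group's summed FPKM, 7 of the 10 kept their highest tissue, and *Ppargc1b*, *Esrrg* and *Gabpa* did not. These sums lack genes short of data and listed at 0, such as 11 mitochondrial mRNAs in WT heart and *Alb* in liver. The shares in heart and liver are therefore too high. With no spread between samples, neighbours in an order that lie closer than the genotypes do, such as heart and eyes for *Ppargc1b* and *Esrrg* or spleen and testes for *Nrf1* (1.03-fold apart), cannot be ranked.

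The genes with WT levels most like those of *Ppargc1a* over the 7 tissues, among those with a mean of at least 1 FPKM and a range of at least 1 on the log2 scale, were *Rhot2* (r = 0.98), a protein of mitochondrial transport along microtubules, *Epm2a* (0.97), the glycogen phosphatase laforin, *Mtfp1* (0.97), a protein of mitochondrial fission, *Rsad1* (0.95) and *Gm14964* (0.95). For *Esrra* they were *Mrpl42* (0.99), *Acad12* (0.97) and *Ndufs7* (0.97), a mitochondrial ribosome protein, an acyl-CoA dehydrogenase and a subunit of complex I. *Tfb2m* was nearest to *Cox20* (0.99) and *Tmem126a* (0.98), assembly factors of the respiratory chain, and *Plod1* (0.97). *Sirt3* was nearest to *Mlxipl* (0.997), the carbohydrate response factor ChREBP, *Bloc1s5* (0.99) and *Acsf3* (0.97), and *Tfam* to *Atf1* (0.99), *Ubac2* (0.98) and *Nhej1* (0.98). Each member had 2 to 33 genes with r over 0.95, so a high r over 7 tissues does not single out a gene. Values under 1 FPKM also entered r, among them those of *Ppargc1a* in prostate, testes, spleen and MEFs.

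For the others, the nearest genes were *Ankrd33b* (0.98), *Gm26869* (0.97) and the clock gene *Per2* (0.95) for *Ppargc1b*, *Actb* (0.97), *Wdr1* (0.97) and *Srsf3* (0.96) for *Pprc1*, and *Dcn* (0.98), *Cidec* (0.98) and *Dock9* (0.97) for *Esrrg*. They were *Prdm15* (0.99, but 0.60 over the KO values), *Aqr* (0.98, KO 0.89) and *Bptf* (0.98, KO 0.96) for *Nrf1*, and *Ppat* (0.98), *Pnpt1* (0.97) and *Ypel5* (0.95) for *Gabpa*. *Pnpt1* encodes an RNA-degrading enzyme of mitochondria, and *Cidec* a protein of fat droplets.

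Of the 60 pairs with a mean of at least 1 FPKM, 1 lay beyond 1.5-fold, which is 1.67%, where 3.48% of all 90197 pairs of a gene and a tissue did. By tissue, the count was 0 of 7 genes in testes, where 1.92% of all genes lay beyond 1.5-fold, 0 of 8 in prostate (3.08%), 0 of 8 in spleen (6.02%), 0 of 10 in eyes (3.50%), 0 of 10 in heart (2.29%), 1 of 10 in liver (4.72%) and 0 of 7 in MEFs (3.18%). The members' share was under that of all genes over all tissues and in each tissue but liver, where it was 1 gene, so this count is no result about the 10 genes. Their median log2 difference was -0.01 and that of all pairs -0.02, and the median size was 0.11 for both.

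In the middle 90% of their level class lay all but 7 of the 60 pairs, or 11.7% outside, where 10% lie outside over all genes by construction. Of these, 5 were higher in the KO, *Ppargc1a* and *Pprc1* in heart and liver and *Pprc1* in MEFs, and 2 were lower, *Esrrg* in prostate and liver. The KO was lower in 34 pairs and higher in 26, or 56.7% lower against 54.8% of all pairs, and scaling to the same total turned this to 27 lower and 33 higher. The direction of the 10 genes as a group thus turns with the scaling and is not read here.

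The genes around these regulators were described by fixed lists, of which 88 of 90 symbols were in the table. Among the upstream and partner regulators of PGC-1 (AMP kinase subunits, *Sirt1*, *Creb1*, PPAR receptors, MEF2 factors and others), 3 of 169 pairs lay beyond 1.5-fold, or 1.78%, under the 3.48% of all pairs. *Pparg*, the receptor that drives fat cell formation, went from 1.19 FPKM in WT to 3.05 in KO eyes (log2 difference 1.29) and from 14.5 to 7.19 in liver (-0.999). *Mef2c*, a muscle transcription factor, went from 1.98 to 1.20 FPKM in MEFs (-0.68). *Sirt1*, which deacetylates PGC-1α, lay between -0.23 in liver and 0.17 in MEFs, and *Ppara*, a partner of PGC-1α in fat oxidation, had 13.3 and 18.5 FPKM in heart (0.48) and 148 and 112 in liver (-0.40).

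Among the genes that transcribe and replicate the mitochondrial genome, 1 of 130 pairs lay beyond 1.5-fold (0.769%, beside 3.48% of all pairs). It was *Mterf2* (listed as *Mterfd3*), a transcription terminator relative, with 3.41 FPKM in WT and 2.16 in KO liver (-0.64). The other sirtuins had 0 of 35 pairs beyond 1.5-fold. Their log2 differences lay between -0.52 in testes and 0.15 in MEFs. In the tissues other than liver, the transcription and replication genes lay between -0.43 in prostate and 0.44 in MEFs.

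The known targets of PGC-1 and the estrogen-related receptors lay beyond 1.5-fold in 17 of 126 pairs (13.5%, beside 3.48% of all pairs), and 8 of the 17 were in eyes, where 3.50% of all genes did. In WT and KO eyes, *Pdk4*, which blocks the entry of pyruvate into the Krebs cycle, had 4.23 and 12.9 FPKM (log2 difference 1.59), *Pck1* 3.73 and 9.36 (1.31), *Ucp3* 1.93 and 4.58 (1.20), *Ckmt2*, the mitochondrial creatine kinase of muscle, 124 and 247 (0.995), and *Cidea* 2.33 and 4.73 (0.99). *Slc2a4*, the insulin-dependent glucose transporter, had 13.0 and 25.0 FPKM (0.94), *Cpt1b*, which brings fatty acids into muscle mitochondria, 8.77 and 14.9 (0.76), and *Perm1*, listed as *2310042D19Rik*, 7.59 and 11.9 (0.64). In eyes 20 of 22 target genes were higher in the KO, with a median log2 difference of 0.35, beside -0.02 for all genes of eyes. Among the regulators there, *Ppargc1a*, *Ppargc1b*, *Pprc1* and *Esrrg* had -0.01, -0.16, -0.01 and -0.12, while *Esrra* was higher in the KO (0.24, above 93.2% of its class).

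The same KO eyes had higher markers of skeletal muscle and fat, of which *Acta1* went from 276 to 551 FPKM, *Ckm* from 248 to 455, *Tnnt3* from 556 to 1002, *Cfd* from 20.6 to 118 and *Adipoq* from 7.31 to 21.8. All 5 muscle and all 5 fat markers were higher in KO than in WT eyes, and the part of these tissues in the target gene values was not tested. The lens gene *Cryaa* had 5281 and 5290 FPKM.

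In heart, 18 of 23 target genes were higher in the KO and 5 lower (21.7%), where 41.4% of all genes of heart were lower. The median log2 difference of the targets was 0.11, beside 0.03 for all genes, and 2 targets lay beyond 1.5-fold, where 2.29% of all genes did. *Pck1* had 21.2 and 9.23 FPKM in WT and KO (-1.19) and the brown fat gene *Ucp1* 18.1 and 8.83 (-1.03), and all 5 fat markers were lower in KO heart, *Adipoq* with 21.0 and 9.23 FPKM and *Plin1* with 9.81 and 4.23. Genes of fast skeletal muscle were also lower in KO heart, *Tnnt3* with 30.3 and 0.786 FPKM, *Myh1* with 3.40 and 0.00586 and *Myh4* with 2.03 and 0.00442, which their sum does not show because *Ckm* makes up most of it, and so was the B cell gene *Cd79a* with 9.51 and 4.50. The 4 macrophage markers were all higher in KO heart (sums of 45.6 and 55.7 FPKM, median log2 difference 0.27). What part these tissues and cells have in the heart values was not tested. The targets of fat oxidation in heart muscle had smaller differences. *Cpt1b* had 249 and 269 FPKM (0.11), and *Acadm* 712 and 713 (0.00). *Pdk4* had 118 and 160 (0.43), the highest log2 difference of the 23 targets.

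In liver, 3 of 17 target genes lay beyond 1.5-fold, where 4.72% of all genes did. Of the 17, 9 were lower and 8 higher in the KO, with a median log2 difference of -0.05, beside -0.02 for all genes of liver. *Alas1*, the first enzyme of heme synthesis, had 139 FPKM in WT and 522 in KO (log2 difference 1.91), and *Fgf21*, a hormone of fasting, had 1.48 and 6.47 (2.05). *G6pc*, the last enzyme of glucose release, had 425 and 261 FPKM (-0.70), whereas *Pck1*, the other classical glucose-production target of PGC-1α, had 1672 and 2328 (0.48). The muscle and fat markers summed to at most 2.60 FPKM each in liver, and the liver markers to 28565 and 27922 in WT and KO. As in testes, prostate, eyes and heart, all 4 macrophage markers were higher in KO liver (sums of 42.3 and 60.7 FPKM, median log2 difference 0.48). So were all 4 fibroblast markers (29.2 and 42.7 FPKM, median 0.55 over the 3 with a mean of at least 1 FPKM). The part of both marker sets in the liver differences, of *Ppargc1a* and *Pprc1* too, was not tested. *Ppargc1a* (0.42), *Alas1*, *Fgf21* and *Pck1* were thus higher and *G6pc* lower in KO liver, each from 1 pair of pooled values. The 17 targets as a list had no common direction there.

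In the remaining tissues, *Pck1* had 0.933 and 3.33 FPKM in WT and KO prostate (1.73), where *Adipoq* had 3.93 and 15.5. *Slc2a4* had 1.08 and 2.52 FPKM (1.16) and *Pdk4* 3.58 and 7.66 (1.08) in WT and KO spleen, and *Fgf21* had 1.89 and 1.12 (-0.71) in testes. In MEFs 0 of 15 target genes lay beyond 1.5-fold (beside 3.18% of all genes), and the muscle and fat markers there, apart from *Acta1*, were at most 0.672 FPKM.

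**Figure D3:**
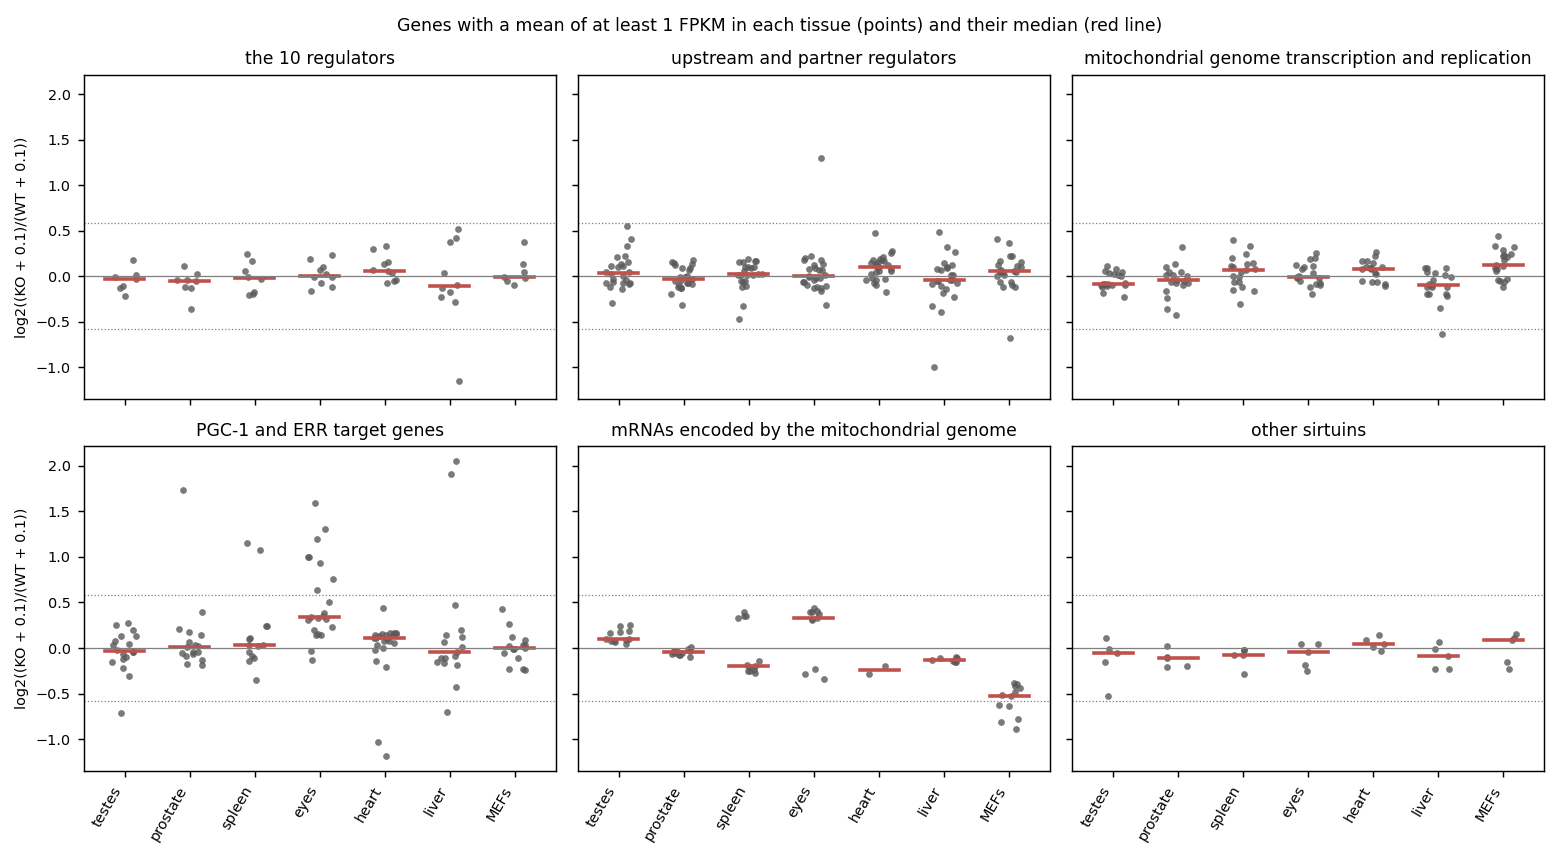
Log2 difference between *Tug1*-/- and wild-type for the 10 regulators and the genes of 5 lists in each tissue (1 point per gene with a mean of at least 1 FPKM; red lines are medians; dotted lines are 1.5-fold). The targets in eyes have a median of 0.35 and the mitochondrial mRNAs in MEFs a median of -0.52, while the medians of the 10 regulators lie between -0.11 and 0.06.

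**Figure D4:**
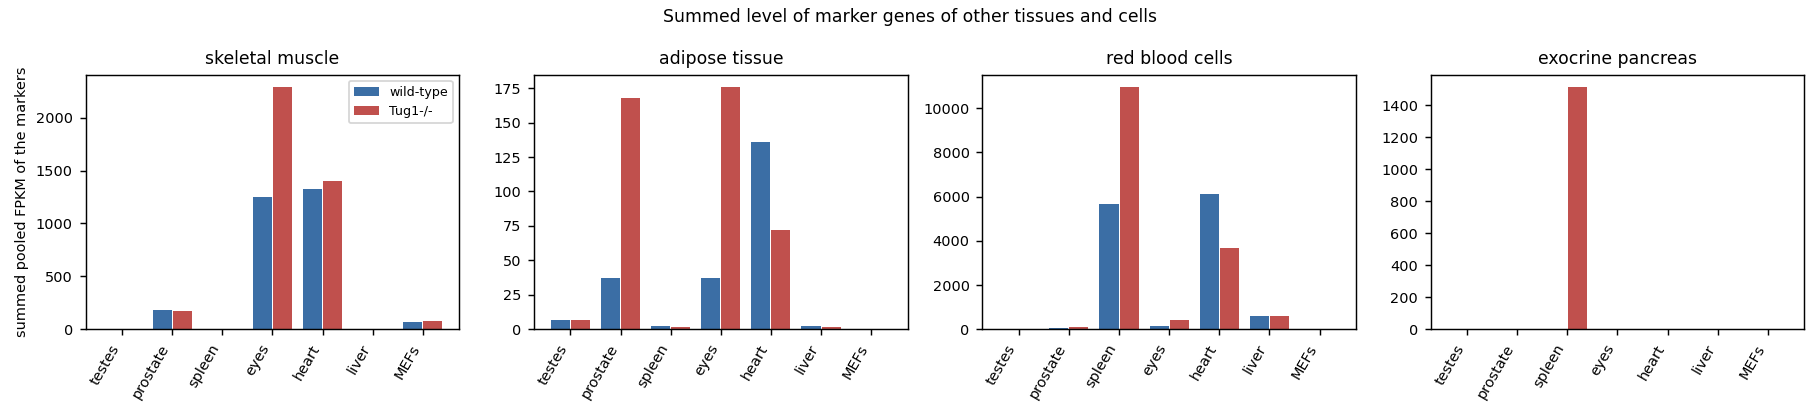
Summed FPKM (linear axis from 0) of marker genes of skeletal muscle, adipose tissue, red blood cells and exocrine pancreas in each tissue, blue for wild-type and red for *Tug1*-/-. Muscle goes from 1246 to 2294 FPKM and fat from 37.3 to 176 FPKM in eyes, and pancreas from 2.64 to 1516 FPKM in spleen.

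The mRNAs encoded by the mitochondrial genome itself, which TFAM and TFB2M serve to transcribe, had 5 of 69 pairs beyond 1.5-fold (7.25%, beside 3.48% of all pairs), all in MEFs, where 3.18% of all genes were. There 12 of 12 mRNAs were lower in the KO, with log2 differences from -0.89 to -0.38, a median of -0.52, and -0.46 after scaling to the same total. *mt-Nd4* had 1582 FPKM in WT and 855 in KO (-0.89), *mt-Nd5* 861 and 492 (-0.81), *mt-Nd6* 955 and 555 (-0.78), *mt-Cytb* 2743 and 1762 (-0.64) and *mt-Nd2* 1367 and 887 (-0.62), genes for subunits of complex I and, for *mt-Cytb*, of complex III. In the same cells *Tfam* had a log2 difference of -0.02, *Tfb2m* -0.10 and *Pprc1* 0.37, and 14 of 19 genes of mitochondrial genome transcription and replication were higher in the KO (median 0.13). The mRNAs come from shared precursor transcripts and are not independent of each other. *mt-Nd6* lies on the strand opposite to its neighbours, so without the strand its reads are uncertain, and copies of mitochondrial genes in the nuclear genome can share reads with all of them.

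In testes 12 of 12 mitochondrial mRNAs were higher in the KO by log2 differences of 0.05 to 0.26, and in liver 8 of 8 usable ones had log2 differences of -0.15 to -0.09. Scaling to the same total moved the median from 0.10 to 0.20 in testes and from -0.13 to -0.07 in liver. In eyes 8 of 11 were higher and *mt-Atp6*, *mt-Atp8* and *mt-Co3* lower, and in spleen 8 of 12 were lower. The prostate median turned from -0.05 to 0.02 with scaling. In heart, the tissue with the most *Ppargc1a*, the deposited table marks 11 of the 13 as having too little data, with many listed at 0, so only *mt-Nd2* (8181 and 7108 FPKM) and *mt-Nd3* (45860 and 37768) could be read.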

How the data were processed

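RNA from 7 tissues of WT and *Tug1*-/- mice had been sequenced from TruSeq RNA v2 libraries, which do not keep the strand. Per the labels, the submitters' processing notes name CASAVA 1.8.2, TopHat2, Cuffdiff and mm10. The annotation behind the table is not given in the sources used here. The authors deposited 1 table of FPKM values (the unit of its layout, not named in its header) with 1 pooled value per genotype and tissue, and no value per sample. Its columns of the authors' fold changes, test statistics, p-values and q-values were not used, and its status column served only to leave out estimates marked as failed or short of data. Brain was not analysed here (26653 of 213224 lines of the table).

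For each gene the log2 of (KO + 0.1)/(WT + 0.1) was computed where the mean reached 1 FPKM. A difference was counted beyond 1.5-fold. With 1 value per group there was no test. Level classes and Pearson's r over the WT tissues are descriptions. All 10 genes, the list genes beyond 1.5-fold, *Tug1*, and the 3 genes (5 for *Ppargc1a*) with the highest r were to be named; other list genes were named after their values were seen. The members and lists were chosen with earlier results of these data known. Positions are from GENCODE vM21 (GRCm38), and all 10 identifiers matched without their version. Motif letters were searched in RefSeq promoters. Some genes are not reported here. The steps were tested on simulated data. Alternatives were pseudocounts of 1 and 0.01, scaling, centring, other floors, 2-fold, and leaving out tissues. Python 3.11.15, numpy 2.4.6, pandas 2.3.3 and matplotlib 3.10.9 were used.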

Additional observations from a re-analysis of the deposited data

How the results depend on the processing

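The number of regulator and tissue pairs beyond 1.5-fold was 1 and became 2 of 70 with no filter on low values, where *Ppargc1a* in spleen was added, and 0 of 51 with a mean of at least 5 FPKM, which removes *Esrrg* in liver. The list genes beyond 1.5-fold numbered 26 of 529 pairs, 17 of 453 with a mean of at least 5 FPKM, 11 beyond 2-fold, and 12 of 225 without spleen, prostate, eyes and heart, an alternative chosen after seeing the data. Under the other alternatives both counts stayed within 1.5 times and the median of the 10 genes lay between -0.03 and 0.01. A pseudocount of 1 moved 8 of the 70 log2 differences by over 0.1, of which *Esrrg* in liver (-0.69) was over 1 FPKM, and 0.01 moved 3. Scaling to the same total shifted the median of all genes by at most 0.10 and changed the sign of 10 differences, each of size 0.06 or less. No paired analysis was possible because the table holds 1 pooled value per genotype and tissue, and for the same reason no sample could be left out. The depth is unknown, and FPKM near 0 cannot be separated from 0.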

Other observations

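A further pair of lists was looked at after the values above had been seen. Of 8 genes of heme synthesis, the pathway that *Alas1* opens, *Alas1* was the only one beyond 1.5-fold in liver, where 4.72% of all genes were. The other 7 lay between -0.26 (*Uros*) and 0.10 (*Fech*). The form of the first enzyme made in red blood cell precursors, *Alas2*, had 151 and 146 FPKM in WT and KO liver. In spleen 7 of the 8 genes were beyond 1.5-fold higher in the KO, with *Cpox* at 18.4 and 40.9 FPKM (1.15), and *Alas1* alone had a lower value, 12.8 and 11.9 (-0.11). The red blood cell markers, of which *Alas2* is itself one, were also higher in KO spleen and eyes, and their part was not tested.

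Of 13 genes of mitochondrial fusion, fission, turnover and protein quality, 1 was beyond 1.5-fold in any tissue. It was the chaperone gene *Hspd1* in spleen with 68.8 and 105 FPKM (0.61), where 6.02% of all genes were beyond 1.5-fold. In heart 11 of 13 and in eyes 12 of 13 had a higher value in the KO, with medians of 0.09 and 0.14, beside 0.03 and -0.02 for all genes of these tissues. The skeletal muscle and fat markers were also higher in KO eyes (1246 and 2294 FPKM, 37.3 and 176 FPKM), and their part was not tested. In MEFs, where the mitochondrial mRNAs were lower in the KO, 7 of 12 were lower with a median of -0.03.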
